A study of Homo sapiens with 6 samples.

Results

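The genes of the major histocompatibility complex (MHC) class II pathway were examined in MDA-MB-231 cells, an established human triple-negative breast cancer line, by RNA sequencing. The 10 genes were chosen by symbol, and all 10 were found among the 17100 rows of the count table: CIITA, RFX5, CD74, HLA-DRA, HLA-DRB1, HLA-DPA1, HLA-DPB1, HLA-DQA1, HLA-DMA and HLA-DMB. They were compared between vehicle-treated cells and cells given guadecitabine (SGI-110) at 1 µM for 96 h and then kept without drug for 24 h, with 3 libraries in each group. Guadecitabine is a dinucleotide that releases decitabine, which traps DNA methyltransferases in dividing cells, so that DNA methylation is lost as the cells replicate. All libraries come from this 1 cell line, with no other allele or agent named. The sample labels do not name separate cultures, and the methods describe independent experiments.

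MHC class II molecules are pairs of an alpha and a beta chain that show peptides from endosomes to CD4+ T cells. They are made mainly by B cells, dendritic cells and macrophages, while most epithelial cells and tumors derived from them make little unless interferon-gamma induces it. CIITA, a co-activator that does not itself bind DNA, is recruited by RFX, CREB and NF-Y proteins bound to the W, X and Y boxes of class II promoters, and its amount largely sets class II transcription. The newly made chains bind the invariant chain, CD74, and HLA-DM later exchanges the remnant of CD74 for peptide.

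Of the 10 genes, 8 were lower after guadecitabine, none was higher, RFX5 was not called and HLA-DQA1 had too few counts to test. The fall was 1.59-fold for CD74, 5.26-fold for HLA-DPB1 and between these for CIITA, HLA-DRA, HLA-DRB1, HLA-DPA1, HLA-DMA and HLA-DMB. The median log2 fold change of the 9 genes tested was -1.23, against 0.02 over all 13322 genes tested. Over all genes tested, 18.4% were called lower and 19.3% higher at an adjusted p under 0.05 (edgeR quasi-likelihood test, Benjamini-Hochberg). In 8 of the 9 genes every guadecitabine library lay below every vehicle library, as was the case for 25.0% of all genes tested. In bulk RNA a lower level in every cell cannot be told apart from fewer cells that express the gene, and this holds for each value here. All 9 tested genes had at least 10 counts in every library, so none passed the filter on low counts through 1 group alone.

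**Figure D1:**
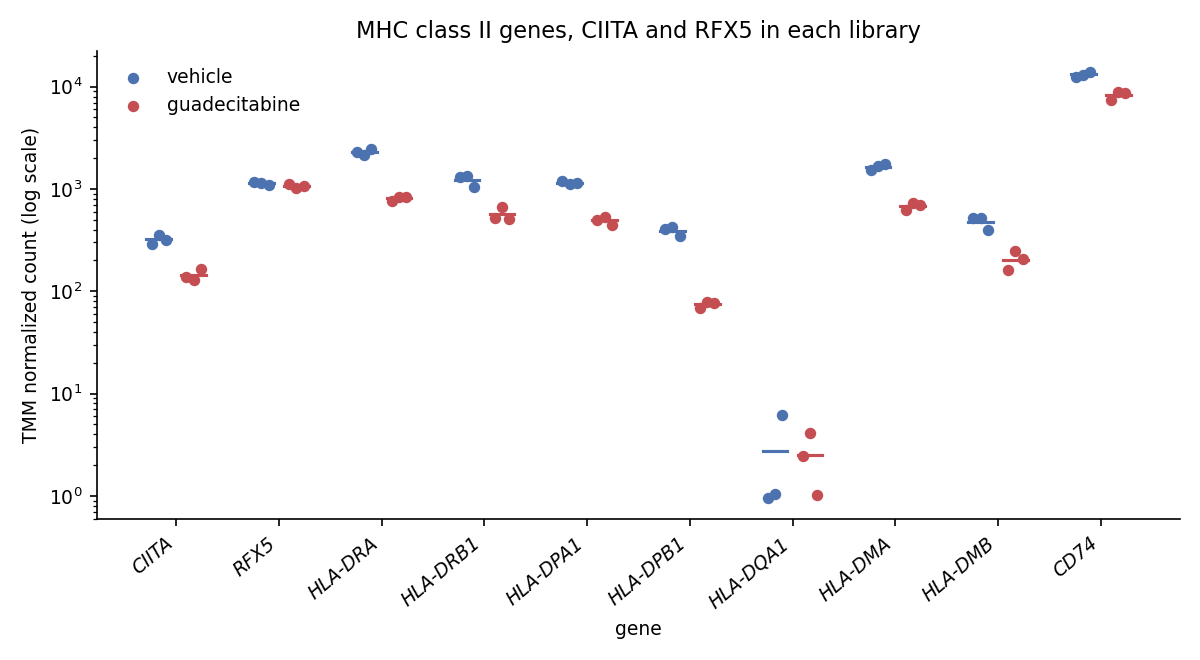
TMM normalized counts of the 10 genes in each of the 3 vehicle and 3 guadecitabine libraries, on a log axis, with each point a library and each bar a group mean. The guadecitabine points lie below all vehicle points for CIITA, CD74, HLA-DRA, HLA-DRB1, HLA-DPA1, HLA-DPB1, HLA-DMA and HLA-DMB, and mix with them for RFX5 and HLA-DQA1.

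Promoter sequences from RefSeq (GRCh38.p14) were available for 8 of the 10 genes, and stretches with motif matches are shown because class II promoters are known for the X and Y boxes read by the CIITA complex. The windows ran from 250 bases before to 50 bases after each start. They were searched on both strands for the Y box core ATTGG, which reads CCAAT when it lies on the opposite strand, and for the X box core AACNGATG, and no match overlapped another. Capitals mark the matches.
HLA-DRB1, chr6:32589880-32589939, minus strand: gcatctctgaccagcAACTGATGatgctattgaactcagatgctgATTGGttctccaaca
HLA-DRB5, chr6:32530363-32530422, minus strand: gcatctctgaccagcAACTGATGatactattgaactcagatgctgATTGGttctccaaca
HLA-DMB, chr6:32941036-32941128, minus strand: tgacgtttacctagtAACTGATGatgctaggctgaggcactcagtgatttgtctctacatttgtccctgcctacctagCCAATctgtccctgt
HLA-DMA, chr6:32953132-32953191, minus strand: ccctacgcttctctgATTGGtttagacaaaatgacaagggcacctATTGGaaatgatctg
HLA-DPB1, chr6:33075870-33075929, plus strand: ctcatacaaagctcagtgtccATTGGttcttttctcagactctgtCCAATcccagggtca
HLA-DQA1, chr6:32637293-32637352, plus strand: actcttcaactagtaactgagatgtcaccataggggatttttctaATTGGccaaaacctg
CD74, chr5:150412949-150413008, minus strand: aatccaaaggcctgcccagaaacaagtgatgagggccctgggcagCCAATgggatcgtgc
RFX5, the first of 3 windows, chr1:151347333-151347392, minus strand: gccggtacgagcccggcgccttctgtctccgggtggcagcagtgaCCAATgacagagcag

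A Y box core stood in the windows of 7 genes, and in 34.6% of all 35116 promoter windows. HLA-DPA1 was the gene without these letters. The X box core was found in HLA-DRB1 and HLA-DMB, as well as in the related HLA-DRB5, and in 1.99% of all windows, and 0.735% of all windows held both motifs. In HLA-DRB1 and HLA-DRB5, 22 bases separated the X core from the Y core. In HLA-DMB 55 bases lay between the X core and the only exact match to the Y core. Whether these matches in HLA-DMB act as a pair was not tested. The interferon-gamma activated site, TTCNNNGAA, was found for HLA-DQA1 and in 7.66% of all windows. CpG, the dinucleotide that carries DNA methylation, was also counted. Of 11 windows of these genes 8 held fewer CpG than the median of 14 over all windows, with 1 in HLA-DRB1 and in HLA-DQA1, 2 in HLA-DPB1 and 3 in CD74 and in HLA-DMA. The most, 27, were in a window of HLA-DPA1. Absence of a match says only that these letters are not in the window.

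CIITA (NM_000246, hg19 chr16:10971055-11018840, plus strand), the class II transactivator, was lower after guadecitabine. Its normalized counts were 292.0, 356.5 and 318.6 in vehicle replicates 1 to 3 and 138.3, 128.1 and 165.4 in guadecitabine replicates 1 to 3. The lowest vehicle library was therefore above the highest guadecitabine library. The mean fell from 322.3 ± 32.4 to 143.9 ± 19.3 (SD, n = 3 each), a log2 fold change of -1.15 (SE 0.151), or 2.22-fold lower (edgeR adjusted p = 0.000413). The lowest raw count behind these values was 63, in guadecitabine replicate 2, which was also the shallowest library.

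RFX5, a subunit of the RFX complex that binds the X box, did not pass the test. Its normalized counts were 1174.7, 1142.1 and 1086.8 in the vehicle libraries and 1119.9, 1014.3 and 1074.8 in the guadecitabine libraries. The groups overlapped, with means of 1134.5 ± 44.4 and 1069.7 ± 53.0 (SD, n = 3 each). The log2 fold change was -0.08 (SE 0.0984, edgeR adjusted p = 0.54).

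CD74, the invariant chain, was the most highly expressed of the 10 genes and fell least among the 8. Its normalized counts were 12556.2, 13151.0 and 13902.4 in vehicle and 7343.1, 8860.2 and 8660.1 after guadecitabine. The groups did not overlap. Means were 13203.2 ± 674.6 and 8287.8 ± 824.2 (SD, n = 3 each), a log2 fold change of -0.67 (SE 0.106, edgeR adjusted p = 0.00117). CD74 lies outside the class II region, on chromosome 5 (hg19 chr5:149781200-149792499, minus strand).

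HLA-DRA encodes the only alpha chain of HLA-DR, the most abundant class II molecule in most tissues. Its normalized counts were 2279.0, 2136.6 and 2453.6 in vehicle and 769.0, 833.4 and 825.8 after guadecitabine. The groups did not overlap. HLA-DRA fell 2.83-fold, from 2289.7 ± 158.7 to 809.4 ± 35.2 (SD, n = 3 each), with a log2 fold change of -1.50 (SE 0.105, edgeR adjusted p = 1.09e-05).

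HLA-DRB1, the main HLA-DR beta chain, had 1296.4, 1352.0 and 1050.5 normalized counts in vehicle and 524.0, 662.6 and 512.2 after guadecitabine. The lowest vehicle value was above the highest guadecitabine value. HLA-DRB1 fell 2.19-fold (log2 fold change -1.13, SE 0.144, edgeR adjusted p = 0.000343). HLA-DRB genes resemble each other, and reads can be split between their rows. Of 50-base stretches inside single exons of HLA-DRB1, 88.4% occurred once in hg19, and all 100-base stretches did. With the HLA-DRB rows summed, the log2 fold change was -1.11. The alleles of this line may differ from the reference, and their share of unaligned reads was not tested.

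HLA-DPA1 and HLA-DPB1, the alpha and beta chains of HLA-DP, both fell. HLA-DPA1 had 1185.1, 1128.4 and 1139.2 normalized counts in vehicle and 493.3, 534.6 and 447.7 after guadecitabine, a log2 fold change of -1.23 (SE 0.107, edgeR adjusted p = 3.89e-05). HLA-DPB1 had 403.3, 425.0 and 348.6 in vehicle and 67.9, 79.3 and 77.6 after guadecitabine. Every vehicle library was thus several times above every guadecitabine library for HLA-DPB1. Its mean dropped from 392.3 ± 39.3 to 74.9 ± 6.13 (SD, n = 3 each), a log2 fold change of -2.40 (SE 0.15, edgeR adjusted p = 5.47e-06). By log2 fold change it was gene 112 from the lowest of the 13322 tested. The rows of HLA-DPA1 and HLA-DPB1 lie on opposite strands and overlap by 4853 bp, introns included, of which 31 bp are exon of both canonical transcripts. Whether counting used strand is not given in the sources used here.

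HLA-DMA and HLA-DMB form HLA-DM, which loads peptide on class II molecules in endosomes, and both fell. HLA-DMA had 1516.1, 1665.2 and 1746.3 normalized counts in vehicle and 625.9, 723.6 and 701.8 after guadecitabine, a log2 fold change of -1.27 (SE 0.111, edgeR adjusted p = 4.01e-05). HLA-DMB had 520.3, 518.9 and 394.9 in vehicle and 160.9, 245.9 and 205.7 after guadecitabine, a log2 fold change of -1.25 (SE 0.18, edgeR adjusted p = 0.000716). Neither gene had overlapping groups.

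HLA-DQA1, the alpha chain of HLA-DQ, was hardly detected. Its raw counts were 1, 1 and 8 in the vehicle libraries and 3, 2 and 1 after guadecitabine. With all rows kept, its edgeR adjusted p was 0.97, and at this depth no difference was detectable. Of 50-base stretches inside single exons of HLA-DQA1, 89.7% occurred once in hg19, and of 100-base stretches 96.6% did. Loss of reads to other places, or through alleles unlike the reference, was not tested.

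Levels of different genes were compared as TMM normalized counts per kb of exon. In vehicle, CD74 stood at 8867.1 ± 453.1 reads per kb, followed by HLA-DRA at 1784.7 ± 123.7, HLA-DMA at 1463.9 ± 104.0, HLA-DRB1 at 1014.0 ± 131.9 and HLA-DPA1 at 720.7 ± 18.9 (SD, n = 3 each). HLA-DMB at 342.2 ± 51.5 and RFX5 at 313.6 ± 12.3 overlapped, and below them came HLA-DPB1 at 99.2 ± 9.95, CIITA at 69.3 ± 6.96 and HLA-DQA1 at 1.77 ± 1.94. The libraries of all other neighbors in this order did not overlap. After guadecitabine the order was CD74, HLA-DRA, HLA-DMA, HLA-DRB1, HLA-DPA1, RFX5, HLA-DMB, CIITA, HLA-DPB1 and HLA-DQA1. There HLA-DRA at 630.9 ± 27.4 overlapped HLA-DMA at 609.4 ± 45.7, and HLA-DPA1 at 308.0 ± 27.2 overlapped RFX5 at 295.7 ± 14.7. HLA-DPB1, at 18.9 ± 1.55, had passed below CIITA, at 30.9 ± 4.14 reads per kb. These levels rest on 1 exon length per gene, 3956 bp for HLA-DPB1, 1597 bp for HLA-DPA1 and 4654 bp for CIITA. Whether the transcripts of this line have these lengths was not tested.

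Ratios within a library show how unequally the genes fell. The ratio of CD74 to HLA-DRA per kb was 4.75, 5.30 and 4.88 in vehicle and 8.23, 9.16 and 9.04 after guadecitabine. That of HLA-DPB1 to HLA-DPA1 was 0.137, 0.152 and 0.124 in vehicle and 0.0556, 0.0599 and 0.070 after guadecitabine. Neither ratio had overlapping groups. By the means of the log2 ratios, the first rose 1.77-fold while the second was at 0.449 of its vehicle level. The ratio of HLA-DPB1 to HLA-DRA was at 0.541 of its vehicle level by the same measure. For HLA-DMB to HLA-DMA the groups overlapped, with means of 0.236 ± 0.0486 and 0.238 ± 0.0333 (SD, n = 3 each). Of the 9 ratios compared, 5 had groups without overlap, each at the smallest p that 3 against 3 libraries allow (exact permutation test, two-sided p = 0.1, Benjamini-Hochberg adjusted p = 0.18), so that none can pass 0.05.

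**Figure D2:**
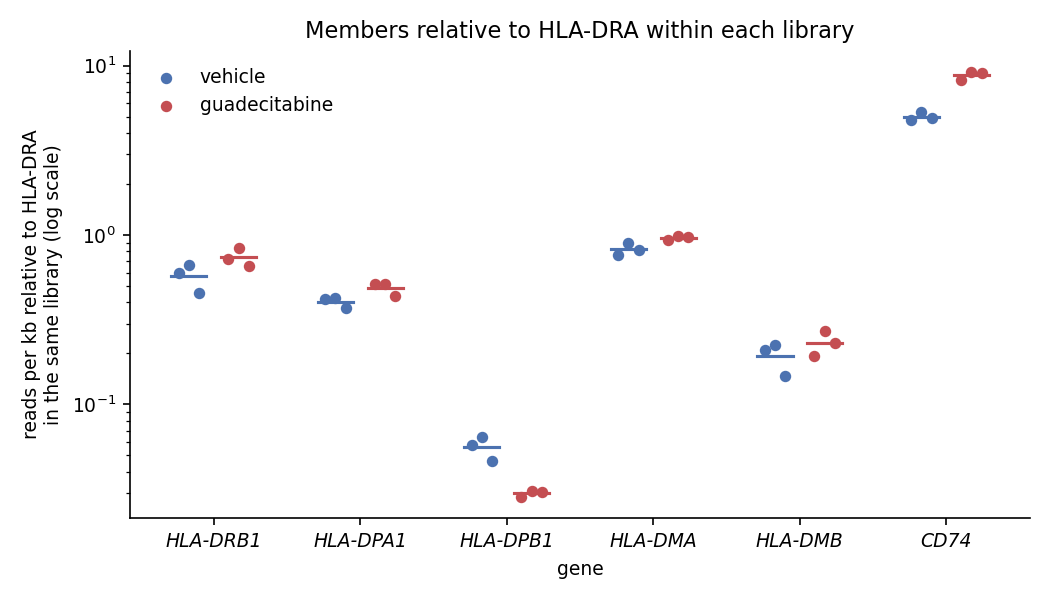
Ratio of each gene to HLA-DRA in the same library, in reads per kb on a log axis, with each point a library and each bar a group mean. CD74 to HLA-DRA lies higher in the 3 guadecitabine libraries (8.23 to 9.16) than in vehicle (4.75 to 5.30), and HLA-DPB1 to HLA-DRA lies lower.

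Of the 8 lower genes 6 lie within 649.9 kb of chromosome 6, between the start of HLA-DRA (hg19 chr6:32407619-32412826) and the end of HLA-DPB1 (hg19 chr6:33043703-33057473), and this span also holds genes of antigen processing for class I. Of its 17 rows, 12 are class II genes, of which 10 were tested and 8 were lower, against 18.4% of all genes tested. The 8 include HLA-DRB5, whose reads may come from other HLA-DRB genes. The class I transporter genes TAP1 and TAP2 in the same span were higher. TAP1 had 3234.9, 3014.1 and 2391.9 normalized counts in vehicle and 5523.7, 8742.3 and 6616.3 after guadecitabine (log2 fold change 1.27, SE 0.18, edgeR adjusted p = 0.000647). TAP2 had a log2 fold change of 0.88 (SE 0.156, edgeR adjusted p = 0.00224), and the immunoproteasome gene PSMB8 one of 0.55 (SE 0.171, edgeR adjusted p = 0.0314), whose call was lost in 4 alternatives, among them leaving out vehicle replicate 1. PSMB9, at 0.44, and BRD2, at 0.07, were not called. The difference between these genes and the class II genes was not tested. The list of non-class II genes in the span was made after the data were seen.

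**Figure D3:**
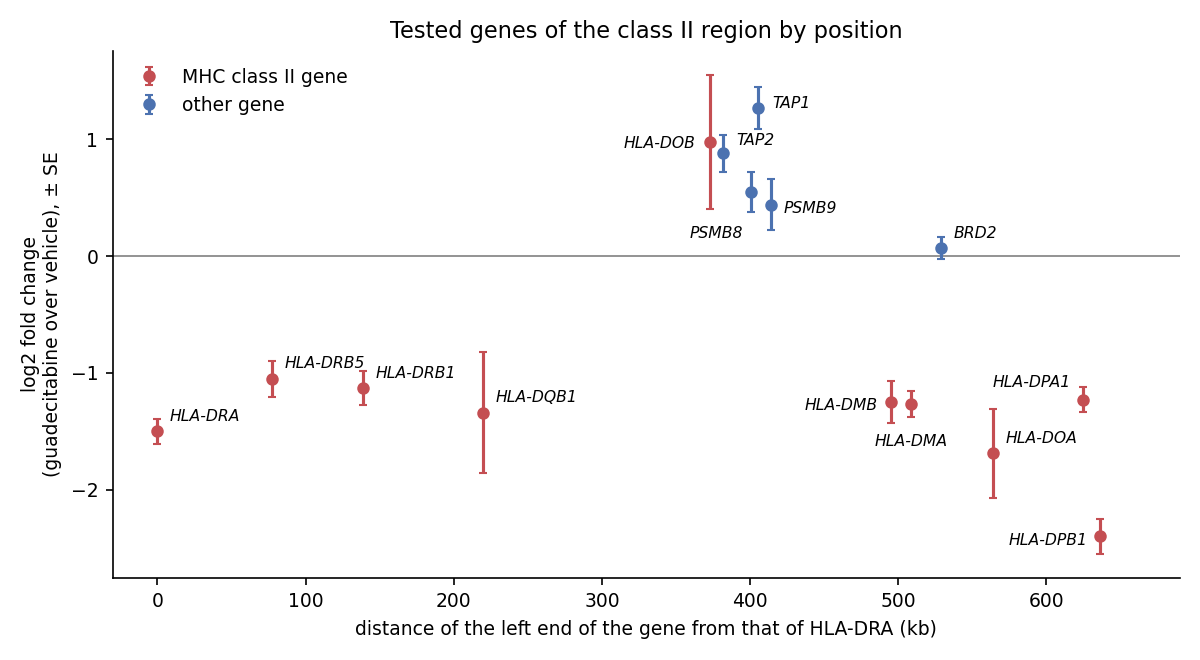
Log2 fold change (guadecitabine minus vehicle) of the tested genes between HLA-DRA and HLA-DPB1, by distance in kb from the start of HLA-DRA, with bars of 1 SE. The class II genes HLA-DRA, HLA-DRB5, HLA-DRB1, HLA-DMB, HLA-DMA, HLA-DOA, HLA-DPA1 and HLA-DPB1 lie below 0, as does HLA-DQB1, which was not called. TAP1, TAP2 and PSMB8 lie above 0, as do HLA-DOB, PSMB9 and BRD2, which were not called.

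Of the other class II chains, 5 were in the table, 4 were tested, and 2 were lower and none higher, where 18.4% of all genes tested were lower and 19.3% higher. HLA-DRB5 fell with a log2 fold change of -1.05 (SE 0.153, edgeR adjusted p = 0.000755), from 424.7 ± 72.6 to 205.6 ± 12.3 normalized counts (SD, n = 3 each). Its row may hold reads of HLA-DRB1, or of HLA-DRB3 and HLA-DRB4, which have no row here. Per kb its ratio to HLA-DRB1 was 0.338 to 0.374 in vehicle and 0.345 to 0.408 after guadecitabine. Whether this line carries HLA-DRB5 was not tested. HLA-DOA, the alpha chain of HLA-DO, an inhibitor of HLA-DM, fell with a log2 fold change of -1.69 (SE 0.379, edgeR adjusted p = 0.00762), from 58.4 ± 12.3 to 17.9 ± 1.58. HLA-DQB1 had a log2 fold change of -1.34 (SE 0.517, edgeR adjusted p = 0.0703). HLA-DOB had 0.98 (SE 0.574, edgeR adjusted p = 0.209). HLA-DQB2 was under the filter. Without vehicle replicate 3, 3 of these chains were lower. With at least 10 counts required in every library, 1 was lower, as HLA-DOA had 8 raw counts in guadecitabine replicate 2 and was left out.

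Most factors that act with CIITA did not pass the test. Of 12 enhanceosome partners and cofactors tested, 2 were lower, against 18.4% of all genes tested, none was higher, and the list's median log2 fold change was -0.15 against 0.02 over all genes tested. KAT2B, a histone acetyltransferase known to acetylate CIITA, fell with a log2 fold change of -0.93 (SE 0.151, edgeR adjusted p = 0.00142), and ZXDB, a zinc finger partner of CIITA, fell with -0.49 (SE 0.131, edgeR adjusted p = 0.0164). The call of ZXDB was lost without vehicle replicate 1, vehicle replicate 2 or guadecitabine replicate 3. The log2 fold changes of RFXAP and RFXANK, the other RFX subunits, were 0.30 and -0.29, and those of NFYA, NFYB, NFYC and CREB1 were -0.09, -0.21, -0.22 and 0.10. None of these 6 was called.

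Of the route from interferon-gamma to CIITA, 14 genes of the list were in the table and 12 were tested, of which 3 were higher and 1 was lower, near the shares of all genes tested (19.3% and 18.4%). JAK1, the receptor kinase, rose (log2 fold change 0.66, SE 0.108, edgeR adjusted p = 0.00153). PTPN2, a phosphatase that limits this signal, rose with 0.71 (SE 0.184, edgeR adjusted p = 0.0144), and IRF2 rose with 0.39 (SE 0.13, edgeR adjusted p = 0.0399). SOCS3, a feedback inhibitor, fell from 1360.1, 1381.5 and 951.0 normalized counts in vehicle to 601.6, 713.5 and 643.3 (log2 fold change -0.92, SE 0.157, edgeR adjusted p = 0.00181). IRF1, an interferon-induced factor that acts on a CIITA promoter, had a log2 fold change of -0.08 (edgeR adjusted p = 0.624), and its groups overlapped. Without vehicle replicate 1, JAK1 alone was called higher. The call of IRF2 was also lost without vehicle replicate 2, guadecitabine replicate 1 or guadecitabine replicate 3. The log2 fold changes of IFNGR1, IFNGR2 and JAK2 were 0.27, 0.07 and -0.34, and none was called.

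Among 9 tested repressors of CIITA, 1 was higher and 2 were lower, near the 19.3% and 18.4% of all genes tested. ZBTB32, a repressor of CIITA known from B cells, had 5.71, 15.8 and 46.3 normalized counts in vehicle and 197.3, 280.5 and 248.0 after guadecitabine. The groups did not overlap, though vehicle replicate 3 was above the other vehicle libraries (log2 fold change 3.35, SE 0.512, edgeR adjusted p = 0.001). Without vehicle replicate 3 the log2 fold change of ZBTB32 was 4.49. Raw counts of ZBTB32 in vehicle were 6, 15 and 60, so it passed the filter on low counts only through the guadecitabine libraries. With at least 10 counts required in every library ZBTB32 was left out. SUV39H1, a histone methyltransferase, fell with a log2 fold change of -1.05 (SE 0.148, edgeR adjusted p = 0.000625), and the deacetylase HDAC1 fell with -0.64 (SE 0.137, edgeR adjusted p = 0.00609). PRDM1, at 0.82 (edgeR adjusted p = 0.0504), and EZH2, at -0.32 (edgeR adjusted p = 0.0664), were not called. In several alternatives 2 repressors were called higher: without vehicle replicate 3, with the DESeq2 Wald test, with scaling by DESeq2 size factors and without a filter.

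Of 15 tested genes that prepare peptides for class II in endosomes, 4 were higher, 3 were lower and 8 were not called, near the 19.3% higher and 18.4% lower of all genes tested. CTSS, cathepsin S, which trims CD74 in antigen-presenting cells, rose from 242.5, 261.5 and 229.9 normalized counts in vehicle to 1875.2, 1323.2 and 1520.5 (log2 fold change 2.69, SE 0.149, edgeR adjusted p = 2.6e-06). IFI30, a lysosomal thiol reductase, rose with a log2 fold change of 1.41 (SE 0.0993, edgeR adjusted p = 1.1e-05), and LGMN, an endosomal protease, with 1.40 (SE 0.134, edgeR adjusted p = 6.58e-05). CTSL, at 0.36, was called but lost its call in 7 alternatives, among them leaving out any 1 library. CTSD, cathepsin D, fell from 63231.8, 70480.6 and 55443.0 to 15515.8, 21838.5 and 17966.4 normalized counts (log2 fold change -1.77, SE 0.144, edgeR adjusted p = 2.57e-05). CTSF fell with -1.14 (SE 0.135, edgeR adjusted p = 0.000227) and CST3, a cathepsin inhibitor, with -0.77 (SE 0.106, edgeR adjusted p = 0.000541).

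Of 12 tested genes of class II ubiquitination and traffic, 2 were higher and 1 was lower, against 19.3% and 18.4% of all genes tested. CD83, which protects class II molecules from ubiquitination, rose from 280.6, 264.7 and 269.2 to 964.7, 975.7 and 918.5 normalized counts (log2 fold change 1.81, SE 0.0997, edgeR adjusted p = 2.5e-06). MARCH8, a ubiquitin ligase of this family, fell with a log2 fold change of -0.56 (SE 0.112, edgeR adjusted p = 0.00432). ARL14, a GTPase of class II transport, had 0, 0 and 4 raw counts in vehicle and 114, 53 and 83 after guadecitabine (edgeR adjusted p = 0.00026). It passed the filter on low counts through the guadecitabine group alone. With at least 10 counts required in every library, 1 gene of this list was higher and 2 were lower. Without vehicle replicate 3 or guadecitabine replicate 2, 2 genes of this list were lower. Of the receptor and ligand partners of CD74, CD44 rose with a log2 fold change of 1.18 (SE 0.0962, edgeR adjusted p = 2.66e-05), and CXCR4, at -0.05, and DDT, at 0.31, were not called, while 2 were higher without guadecitabine replicate 1.

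Class I genes share the SXY promoter module with class II genes, and none of 8 tested was lower while 3 were higher, against 18.4% and 19.3% of all genes tested. HLA-B rose with a log2 fold change of 0.71 (SE 0.153, edgeR adjusted p = 0.00622), HLA-F with 0.54 (SE 0.123, edgeR adjusted p = 0.00848) and B2M, the class I light chain, with 0.40 (SE 0.0845, edgeR adjusted p = 0.00596). NLRC5, the transactivator of class I, had -0.25 (SE 0.105, edgeR adjusted p = 0.085). Of 8 tested T cell costimulation genes, 5 were higher and 1, CD58, was lower, against 19.3% and 18.4% of all genes tested. ICAM1, the ligand of LFA-1, rose from 1948.0, 1829.7 and 1970.0 to 14865.7, 19173.7 and 16631.5 normalized counts (log2 fold change 3.14, SE 0.122, edgeR adjusted p = 3.45e-07). The other genes called higher were CD70, ICOSLG, TNFSF9 and CD40. CD70 had 0, 0 and 7 raw counts in vehicle and 35, 20 and 43 after guadecitabine. It passed the filter on low counts through the guadecitabine group alone. Without guadecitabine replicate 3 ICAM1 alone was called higher. The count was 2 without vehicle replicate 2 and 3 without vehicle replicate 1 or guadecitabine replicate 2, and CD58 kept its call only without guadecitabine replicate 1 among the libraries left out.

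**Figure D4:**
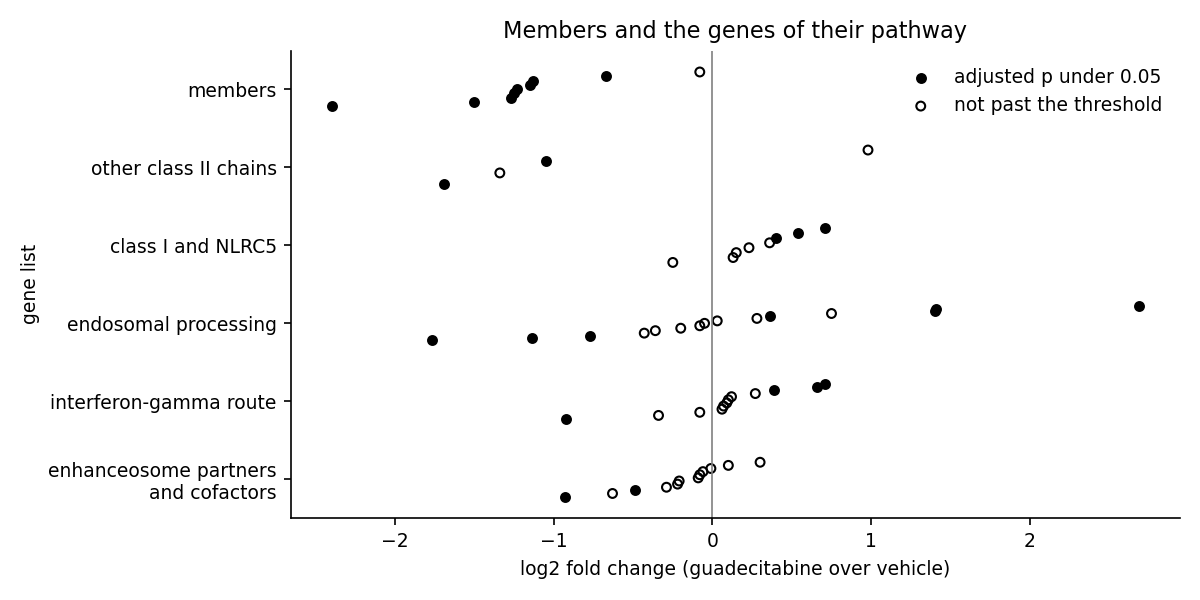
Log2 fold change (guadecitabine minus vehicle) of every tested gene of the 10 chosen genes (members) and of 5 related lists, 1 point a gene, filled where the edgeR adjusted p was under 0.05. The 9 tested members have a median of -1.23, and the other class II chains one of -1.19. Medians are -0.15 for cofactors, -0.05 for endosomal processing, 0.09 for the interferon-gamma route and 0.30 for class I. Genes of endosomal processing range from -1.77 to 2.69.

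By the Euclidean distance between log2 profiles over the 6 libraries, each centered on its mean, the tested genes most like CIITA were C6orf223 (distance 0.167), TEPP (0.203) and EGLN3 (0.215). HLA-DMA, the nearest of the class II genes, was number 71 in this order. Among the 3 genes most like CD74 were CCBL1 (distance 0.128) and RASL11A (0.136). Of 7 tested genes within 500 kb of CIITA, a list made after the data were seen, 3 were lower, against 18.4% of all genes tested: RMI2 with a log2 fold change of -0.62 (SE 0.116, edgeR adjusted p = 0.00316), NUBP1 with -0.46 (edgeR adjusted p = 0.0138) and EMP2 with -0.36 (edgeR adjusted p = 0.0195). Without vehicle replicate 1, vehicle replicate 2 or guadecitabine replicate 3, 1 of these was called, and RMI2 kept its call in all 12 alternatives. TVP23A and DEXI, the nearest rows on either side of CIITA, had log2 fold changes of -0.17 and -0.03, and neither was called, nor were CLEC16A, at 0.02, and SOCS1, at 0.06.

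Library totals ranged from 8792127 counts, in guadecitabine replicate 2, to 22277442, in vehicle replicate 3. Vehicle replicate 3 stood apart, with 20 rows at 0 counts, where the other vehicle libraries had 2498 and 2517 and the guadecitabine libraries 1593 to 2090. Without it the log2 fold changes were -1.16 for CIITA, -0.63 for CD74, -1.45 for HLA-DRA, -1.23 for HLA-DRB1, -1.24 for HLA-DPA1, -2.48 for HLA-DPB1, -1.22 for HLA-DMA and -1.37 for HLA-DMB, and all 8 were still called lower. The line's marker genes VIM, CD44, MSN and AXL summed to 50177.8 to 51788.7 reads per kb in vehicle and 58106.6 to 67730.5 after guadecitabine. AXL was lower (log2 fold change -1.27, SE 0.113, edgeR adjusted p = 4.44e-05), CD44 was higher as given above, VIM, at 0.33 (edgeR adjusted p = 0.0258), lost its call in 5 alternatives, among them leaving out any 1 vehicle library or guadecitabine replicate 3, and MSN, at -0.11, was not called. The receptor and luminal genes ESR1, PGR and FOXA1 were at 4 counts or fewer outside vehicle replicate 3. Of the other luminal genes GATA3 was higher (log2 fold change 0.83) and CDH1 was lower (log2 fold change -1.62, edgeR adjusted p = 0.0313), a call lost in 6 of 11 alternatives, among them leaving out vehicle replicate 1 or any 1 guadecitabine library. Of 5 B cell markers none passed the filter, and their sum was 3.35 to 36.4 reads per kb in vehicle and 8.85 to 13.3 after guadecitabine. Of 8 macrophage and dendritic cell markers found among the rows, 3 were tested, with CSF1R lower (log2 fold change -1.32, SE 0.139, edgeR adjusted p = 0.000115) and CD14 and LYZ not called. This list summed to 172.2 to 255.4 reads per kb in vehicle and 146.0 to 167.0 after guadecitabine, and the highest sums of both lists were in vehicle replicate 3. MS4A1, PTPRC, SPI1 and CD1C were at 3 counts or fewer in every other library, but some other markers of both lists were not. CD14 had 162.5 ± 31.6 normalized counts in vehicle and 177.9 ± 11.9 after guadecitabine (SD, n = 3 each). CSF1R had 251.8 ± 5.98 and 101.2 ± 3.93, and LYZ had 21.2 ± 8.61 and 23.0 ± 3.51. CD79A had 13, 4 and 11 raw counts in vehicle and 8, 4 and 8 after guadecitabine.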

How the data were processed

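RNA of MDA-MB-231 cells was sequenced from 3 vehicle and 3 guadecitabine libraries, grouped by their labels. The authors aligned reads to hg19 with STAR 2.3.1z, per their processing notes, counted exon reads per RefSeq transcript with iRNA-seq and deposited raw counts with exon lengths. The deposited table also holds regularized log2 values and the authors' DESeq2 fold changes and p-values, which were not used. Library preparation was not stated to keep strand. The treatment of reads matching several places is not given in the sources used here.

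The test of these counts was the quasi-likelihood test of edgeR 4.0.16 under R 4.3.3 (TMM, filterByExpr with a minimum count of 10, Benjamini-Hochberg over 13322 genes, threshold 0.05). The fit was also run on simulated data with the same spread for all genes and no outlying library, so that run does not cover vehicle replicate 3. Standard errors were derived from the F statistic. Normalized counts refer to a library of 17888476 counts, the mean over tested genes. Replicate p-values measure only the spread between these libraries. Depth was 8792127 to 22277442 counts a library, and counting floors (3 counts) cover counting error only. Ratios were compared with exact permutation tests (scipy 1.17.1). DESeq2 1.42.0, other scalings and filters, a replicate block and each library left out were the alternatives.

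Members and gene lists were chosen with earlier results of these data known, and a few genes that the rules would name are not reported here. All 10 members are named, and of each list every gene past the threshold (4 a direction with the smallest p above 8), while others were named for their role after their values were seen. Promoter windows were RefSeq's (GRCh38.p14). Windows of CIITA and HLA-DRA were not used here.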

Additional observations from a re-analysis of the deposited data

How the results depend on the processing

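The 8 lower calls (CIITA, CD74, HLA-DRA, HLA-DRB1, HLA-DPA1, HLA-DPB1, HLA-DMA, HLA-DMB), and RFX5 not called, held in all 12 alternatives run, with 8 lower and 0 higher each time. Over them the log2 fold change was -1.27 to -1.07 for CIITA, -0.72 to -0.59 for CD74, -2.48 to -2.32 for HLA-DPB1 and -0.12 to -0.05 for RFX5, and the largest adjusted p of a called gene was 0.0081, for HLA-DMB. Leaving out 1 library gave 1706 to 3002 genes higher and 1629 to 2575 lower over all genes, against 2576 and 2446 with all libraries. Without a filter the median log2 fold change of all genes was -0.107, against 0.02, and it was 0.051 with library totals alone. Replicate numbers did not pair the libraries (correlations of same-numbered deviations -0.05, 0.049 and -0.037). With the replicate number as a block, 8 members were lower, and over all genes 2424 were higher and 2230 lower. HLA-DQA2 was not summed with HLA-DQA1, since it has no row here. HLA-DQA1 and HLA-DQB2 had too few counts to test.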
